A study of Mus musculus with 6 samples.

Results

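Collagen genes were taken as all genes of the crypt RNA-Seq table whose symbol is *Col*, a number, a and a further number, which gave 40 of the 18049 genes. Total RNA had been sequenced from colonic crypts of a C57BL/6J mouse model of Lynch syndrome (LS), in 3 control mice and 3 GSK503-treated mice with 1 library per mouse. All 6 mice carried the *Villin-Cre* transgene, which is active in the intestinal epithelium and not in the connective tissue cells, and a humanized *TgfβRII* knockin with a run of A bases. All were fed a Western-style diet from 8 weeks of age. The GSK503-treated mice received the EZH2 inhibitor GSK503 by tail vein at 200 μg/kg, and the control mice received vehicle, 20% captisol in PBS, over 9 weeks in both groups. The age at which crypts were taken is not given in the sources used here. The question put to these genes was whether their mRNA in crypts differed between GSK503-treated and control mice.

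Collagens are secreted or membrane proteins whose chains wind around each other into a triple helix. The fibrillar collagens (types I, III, V and their relatives) form the tensile fibrils of connective tissue, and in the colon they are made mainly by fibroblasts of the lamina propria and submucosa. Type IV collagens form the sheet-like network of basement membranes, on which epithelium, endothelium and smooth muscle rest, and type VI collagens form beaded filaments between the basement membrane and the fibrils. Other classes decorate fibrils (the fibril-associated collagens), build short-chain networks or span the cell membrane. A crypt preparation is chiefly epithelium, so that most collagen mRNA in it is ordinarily low.

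The libraries were of similar depth, with estimated totals between 108162848 and 135085027 counts. A value is the estimated CPM of a gene (counts relative to the library total after TMM scaling), and 3 counts correspond to a value between 0.0228 and 0.0271, which covers counting error only. The epithelial markers *Krt8*, *Epcam*, *Cldn7*, *Cdh1* and *Krt20* summed to 9557, 9090 and 8709 in control mice 1, 2 and 3. In GSK503-treated mice 1, 2 and 3 they summed to 10613, 10292 and 9092. In this sum treated mice 1 and 2 thus lay above every control, and treated mouse 3 among the controls. *Krt8* weighed most in it, with 5319, 4961 and 4505 in control mice and 6090, 5966 and 4889 in treated mice. Not every marker had this order. *Cdh1* was 1210 in treated mice 1 and 2, within the controls (1111 to 1292). *Epcam* in treated mouse 1 (1965) and *Krt20* in treated mouse 2 (651) also lay within the controls. The groups also differed in sex. All 3 control mice expressed the Y-linked genes *Uty*, *Ddx3y*, *Kdm5d* and *Eif2s3y*, all 3 GSK503-treated mice expressed *Xist*, and all 5 genes passed the test in limma. An effect of sex and an effect of treatment cannot be told apart in these mice. GSK503-treated mouse 3 stood apart from the other treated mice in the values of connective tissue cells, and results that rest on this library are given with and without it.

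No collagen gene had an adjusted p below 0.05 between the groups, whether higher or lower. The test was limma on log2(value + 0.1) with Benjamini-Hochberg adjustment over 16670 genes. Adding 0.1 makes the log2FC of weakly expressed genes too small. It covered 37 of the 40 collagen genes, since *Col6a6*, *Col13a1* and *Col19a1* had a value of at least 0.1 in fewer than 3 mice. Of all genes tested, 107 passed (0.642%), 83 higher (0.498%) and 24 lower (0.144%). At an unadjusted p below 0.05, limma gave 4 collagen genes against 13.3% of all genes. *Col4a1*, *Col5a2* and *Col4a6* were lower (6.27% of all genes) and *Col14a1* was higher (7.06% of all genes). limma-voom on the recovered counts also gave 0 collagen genes after adjustment (0.624% of all genes) and 4 before it (13.5% of all genes). The log2FC was below 0 for 28 of the 37 and above 0 for 9, where 51.1% of all genes were below 0. The median log2FC of the 37 was -0.52, and that of all genes was -0.01. The 3 GSK503-treated mice lay below all 3 control mice for *Col17a1* alone among the 37 (9.22% of all genes) and above them for *Col14a1* alone (9.84% of all genes).

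The treated mice were not alike. The summed value of the 40 collagen genes was 156, 185 and 143 in control mice 1, 2 and 3. In mice 1, 2 and 3 given GSK503 it was 78.1, 99.7 and 203. Mice 1 and 2 were thus below all control mice, and mouse 3 was above them. The same order was seen gene by gene, and was looked for after the values had been seen. GSK503-treated mice 1 and 2 were below all controls and below mouse 3 for 19 of the 37 genes (51.4%), against 9.58% of all genes tested. GSK503-treated mouse 3 had the highest value of the 6 mice for 15 of the 37 (40.5%), against 17.1% of all genes. In bulk samples, fewer cells of a type and less RNA per cell cannot be told apart.

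**Figure D1:**
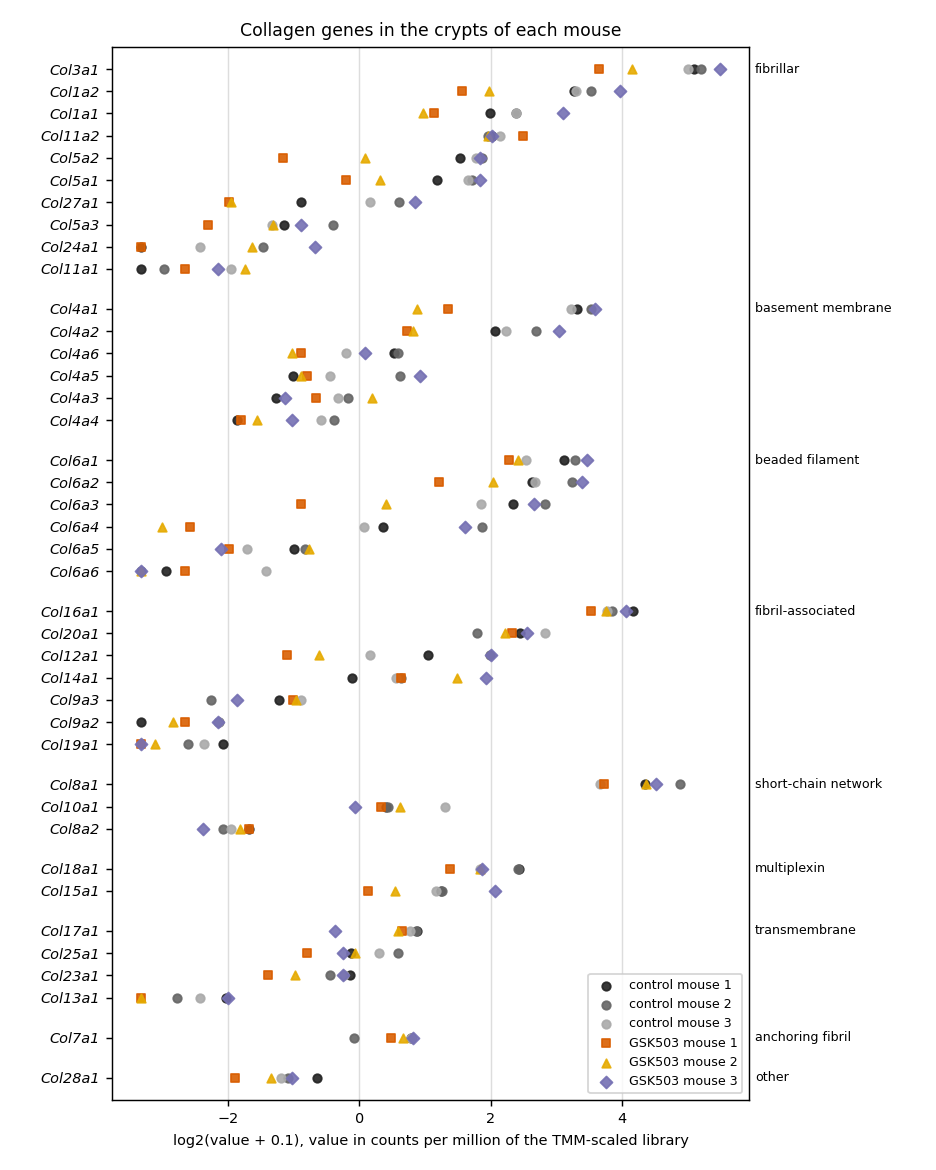
Each point is 1 mouse, and the horizontal axis gives log2(value + 0.1) of each of the 40 collagen genes, with genes grouped by class and ordered by mean level. Circles are control mice 1 to 3, squares, triangles and diamonds are GSK503-treated mice 1, 2 and 3. For 19 of the 37 tested genes the squares and triangles lie left of all circles and of the diamond.

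Without GSK503-treated mouse 3, 8 of the 34 collagen genes then tested were called lower in limma and 0 higher, where 0.615% of all 16255 genes were called lower and 0.714% higher. These 8 were *Col1a1*, *Col1a2*, *Col3a1* and *Col5a2* among the fibrillar genes, *Col4a1* and *Col4a2* of the basement membrane, and *Col6a3* and *Col6a4* of type VI. The median log2FC of the 34 was -0.72, against 0.00 for all genes. In the fit without mouse 3 the 2 remaining treated mice set the spread of their group together with the controls. Mouse 3 was set apart because of its high collagen and connective tissue values. A lower log2FC without it therefore follows from that choice. The adjusted p values of this fit, here and below, depend on it and are given as description only. Leaving out any other mouse gave 0 collagen calls in either direction. In those fits few genes were called at all, 7 to 15 lower and 20 to 92 higher of 16330 to 16377 tested. Without GSK503-treated mouse 1 the median log2FC of the collagen genes was -0.22.

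**Figure D2:**
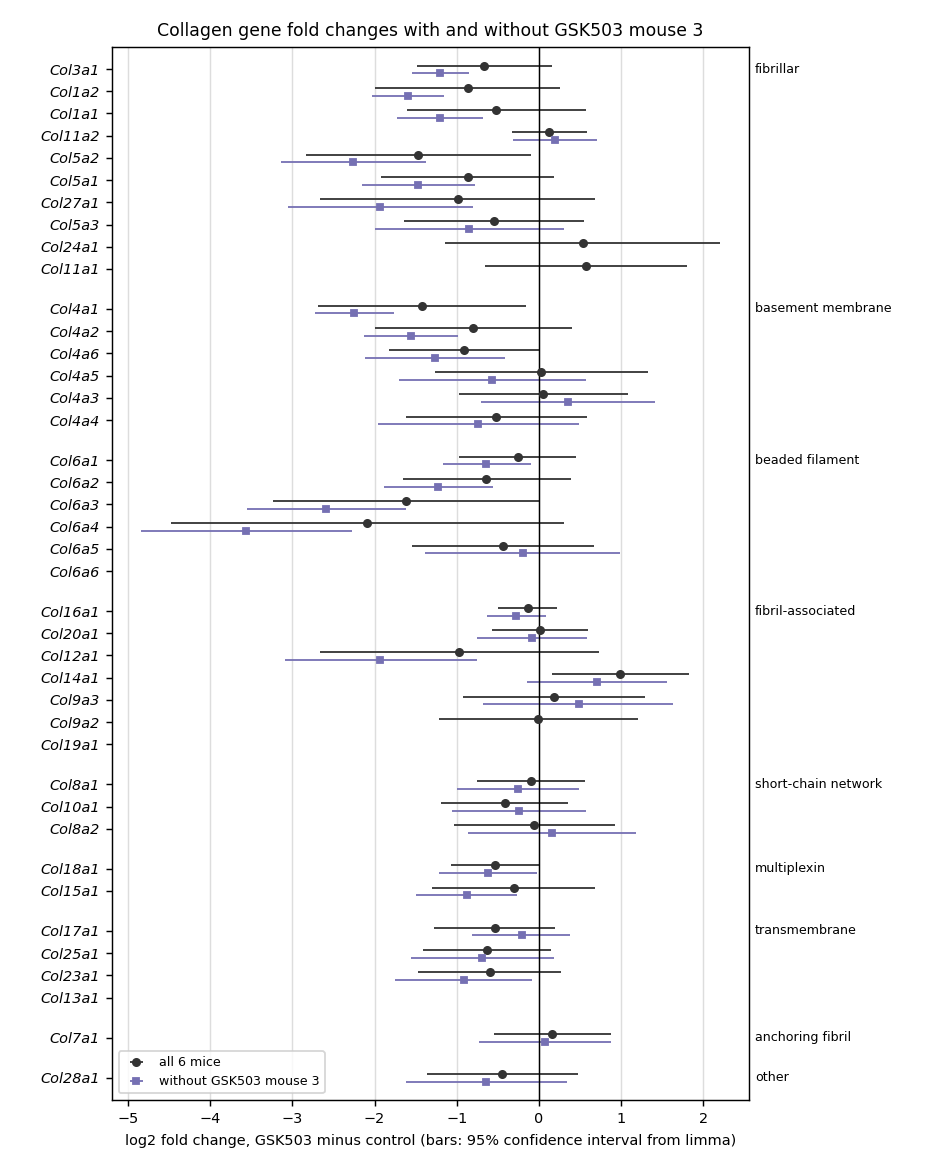
The horizontal axis gives the log2 fold change of GSK503-treated against control mice for each collagen gene, with 95% confidence intervals from limma. Circles are the fit of all 6 mice, in which no gene passed, and squares the fit without GSK503-treated mouse 3, in which 8 genes were called lower; *Col6a6*, *Col13a1* and *Col19a1* were tested in neither, and *Col9a2*, *Col11a1* and *Col24a1* only with all 6 mice.

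Among the fibrillar genes, which carried between 30.3% and 41.5% of the summed collagen value in each mouse, 7 of 10 had a log2FC below 0 and none passed. Their median log2FC was -0.61. *Col2a1* was not analysed here. Together the 10 genes summed to 57.1, 66.1 and 59.2 in control mice, against 24.4, 30.2 and 82.6 in the treated mice. *Col3a1* (ENSMUSG00000026043) encodes the chain of type III collagen, the fine reticular fibrils of the gut wall, and lies on the plus strand of chromosome 1 of GRCm39 from 45350698 to 45395840. Over the 6 mice it had the highest mean level per kb of exon of the collagen genes, 3.34 in the control group and 2.44 in the GSK503 group. Exon length counts the merged exons of all annotated transcripts of a gene, so levels per kb and ranks between genes depend on the annotation. It ranked highest in control mice 1 and 3 and in treated mouse 3, second to *Col8a1* in control mouse 2, and behind *Col8a1* and *Col16a1* in treated mice 1 and 2. Control mice had values of 34, 36.7 and 32.2, and treated mice 1, 2 and 3 had 12.5, 17.7 and 44.9. The first pair of treated mice lay below every control and the last above every control. The means were 34.3 ± 2.29 and 25 ± 17.4 (SD, n = 3 mice each), so that the SD of the treated group was larger than the difference. The log2FC was -0.67 (SE, standard error, 0.37; limma adjusted p = 0.481), and without treated mouse 3 it was -1.20 (limma adjusted p = 0.0124).

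*Col1a2* and *Col1a1* encode the chains of type I collagen, the main fibril of scar and submucosa. *Col1a2* (ENSMUSG00000029661), on the plus strand of chromosome 6 from 4504814 to 4541555, had values of 9.55, 11.4 and 9.73 in control mice and 2.86, 3.83 and 15.5 in treated mice. *Col1a1* (ENSMUSG00000001506), on the plus strand of chromosome 11 from 94827050 to 94843868, had values of 3.87, 5.14 and 5.13 in control mice and 2.09, 1.86 and 8.49 in treated mice. Both chains had the order seen for *Col3a1*, with treated mice 1 and 2 lowest and treated mouse 3 highest. The log2FC was -0.86 for *Col1a2* (SE 0.50, limma adjusted p = 0.502) and -0.52 for *Col1a1* (SE 0.49, limma adjusted p = 0.693). Without treated mouse 3 it was -1.59 for *Col1a2* (limma adjusted p = 0.0101) and -1.20 for *Col1a1* (limma adjusted p = 0.0487). An antisense transcript, *Gm66266*, overlaps 10.3% of the *Col1a2* exon bases, and the strand setting of the counting is not given in the sources used here.

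The promoters of *Col3a1* and *Col1a2* are shown as examples of fibrillar genes in which treated mice 1 and 2 lay below every control and treated mouse 3 above every control. *Col1a1*, *Col5a1* and *Col27a1* also had this order, and their promoters are not shown. Each window holds 250 bases before and 50 bases after the RefSeq start (table of build GRCm38.p6), and was placed on GRCm39 by an exact match, on the plus strand at chr1:45350448-45350747 for *Col3a1* and chr6:4505368-4505667 for *Col1a2*. Capitals mark the letters of a CCAAT box (CCAAT, found in 37.9% of 27025 promoter windows), a GC box (GGGCGG, in 35.9%) or a TATA box (TATAAA, in 14.2%). Both strands were searched, and a match on the other strand is shown as its reverse complement.
Col3a1: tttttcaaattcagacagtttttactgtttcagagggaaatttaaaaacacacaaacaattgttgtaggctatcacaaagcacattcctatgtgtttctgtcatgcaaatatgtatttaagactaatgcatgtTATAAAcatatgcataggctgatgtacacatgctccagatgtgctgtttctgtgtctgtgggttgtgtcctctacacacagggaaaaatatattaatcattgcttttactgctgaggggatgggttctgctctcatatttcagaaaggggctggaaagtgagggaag
Col1a2: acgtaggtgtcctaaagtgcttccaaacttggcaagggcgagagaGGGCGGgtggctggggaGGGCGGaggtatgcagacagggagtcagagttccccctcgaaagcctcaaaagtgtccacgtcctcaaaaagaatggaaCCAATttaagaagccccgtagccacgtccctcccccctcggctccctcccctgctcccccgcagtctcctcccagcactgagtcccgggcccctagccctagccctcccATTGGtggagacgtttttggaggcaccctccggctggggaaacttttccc
The *Col3a1* window held 37.7% G and C and 1 TATA box, and the *Col1a2* window held 61% G and C, 2 CCAAT boxes and 2 GC boxes, where the median window held 52.7% G and C. A match of letters is a description and not a site in use.

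Type V collagen, made of *Col5a1*, *Col5a2* and *Col5a3* chains, sits inside type I fibrils and limits their width. *Col5a1* had values of 2.18, 3.18 and 3.06 in control mice and 0.771, 1.14 and 3.49 in treated mice. *Col5a2*, which lies tail to tail with *Col3a1* at a distance of 16713 bp on chromosome 1, had values of 2.79, 3.55 and 3.31 in control mice and 0.348, 0.964 and 3.48 in treated mice. Treated mouse 3 lay within the controls for *Col5a2* and above them for *Col5a1*, and the other treated mice lay below the controls for both. The log2FC of *Col5a2* was -1.47 (SE 0.61, limma adjusted p = 0.342), and -2.26 without treated mouse 3 (limma adjusted p = 0.0335). That of *Col5a1* was -0.87 (SE 0.47, limma adjusted p = 0.471), and -1.47 without that mouse (limma adjusted p = 0.0622).

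The remaining fibrillar genes were low or did not show this order. *Col11a2*, a chain of type XI collagen known from cartilage, had values of 3.94, 3.77 and 4.3 in control mice and 5.53, 3.79 and 3.96 in treated mice. Its groups overlapped, with a log2FC of 0.12 (95% confidence interval -0.33 to 0.58), and it was the fibrillar gene with the smallest SE, 0.20. *Col27a1*, a fibrillar chain of developing cartilage, ranged from 0.441 to 1.42 in control mice and was 0.153, 0.159 and 1.7 in treated mice. It was low but had the order of *Col3a1*, with treated mice 1 and 2 lowest and treated mouse 3 highest. *Col5a3* ranged from 0.299 to 0.66 in control mice and from 0.102 to 0.441 in treated mice. *Col24a1* ranged from 0 to 0.262 and from 0 to 0.524, and *Col11a1* from 0 to 0.157 and from 0.0593 to 0.199. Among these 5 genes the limma adjusted p lay between 0.611 and 0.844.

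The 6 type IV genes of the basement membrane summed to 16.2, 22.1 and 16.6 in control mice, against 5.64, 5.5 and 23.5 in the treated mice. Their median log2FC was -0.66, 4 of 6 were below 0 and none passed. *Col4a1* and *Col4a2* encode the chains found in nearly every basement membrane. *Col4a1* (ENSMUSG00000031502) lies on the minus strand of chromosome 8 from 11248423 to 11362826, and *Col4a2* (ENSMUSG00000031503) on the plus strand from 11362471 to 11499287. The genes stand head to head and their ends overlap by 356 bp. Their exons share 311 bp, 4.17% of the exon bases of *Col4a1*, where reads cannot be assigned without strand.

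The promoter windows of this pair are shown because they overlap. They lie at chr8:11362777-11363076 on the minus strand for *Col4a1* and at chr8:11362555-11362854 on the plus strand for *Col4a2*, and have 78 bases of the genome in common. Capitals mark the same letters as above.
Col4a1: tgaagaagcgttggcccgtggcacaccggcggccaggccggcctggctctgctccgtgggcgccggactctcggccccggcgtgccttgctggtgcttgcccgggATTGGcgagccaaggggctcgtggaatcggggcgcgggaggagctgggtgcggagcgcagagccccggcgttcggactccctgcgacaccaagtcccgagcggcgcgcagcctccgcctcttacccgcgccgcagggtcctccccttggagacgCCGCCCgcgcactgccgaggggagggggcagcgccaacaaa
Col4a2: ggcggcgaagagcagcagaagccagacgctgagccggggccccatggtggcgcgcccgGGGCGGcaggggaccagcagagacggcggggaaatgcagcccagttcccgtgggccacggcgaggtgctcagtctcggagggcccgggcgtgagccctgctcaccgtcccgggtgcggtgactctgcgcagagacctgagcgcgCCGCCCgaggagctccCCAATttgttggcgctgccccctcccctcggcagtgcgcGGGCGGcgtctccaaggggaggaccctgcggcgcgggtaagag
The *Col4a1* window held 74% G and C with 1 CCAAT box and 1 GC box, and the *Col4a2* window held 73.7% G and C with 1 CCAAT box and 3 GC boxes. The GC box of the *Col4a1* window lies in the shared bases and is the same site as the last GC box of the *Col4a2* window.

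*Col4a1* had values of 9.9, 11.5 and 9.26 in control mice, against 2.44, 1.74 and 11.9 in the treated mice. *Col4a2* had values of 4.08, 6.33 and 4.62 in control mice and 1.56, 1.66 and 8.12 in treated mice. In both genes treated mice 1 and 2 lay below every control and treated mouse 3 above every control. The log2FC of *Col4a1* was -1.43 (SE 0.56, limma adjusted p = 0.317), and -2.25 without treated mouse 3 (limma adjusted p = 0.00343, the smallest of the 34 collagen genes then tested). That of *Col4a2* was -0.80 (SE 0.54, limma adjusted p = 0.563), and -1.56 without treated mouse 3 (limma adjusted p = 0.0295).

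The other type IV chains were lower and more mixed. *Col4a6* and *Col4a5*, which stand head to head on the X chromosome at a distance of 1281 bp, encode chains of smooth muscle and some epithelial basement membranes. *Col4a6* ranged from 0.771 to 1.4 in control mice and was 0.441, 0.39 and 0.965 in treated mice, with a log2FC of -0.91 (SE 0.40, limma adjusted p = 0.373). *Col4a5* ranged from 0.396 to 1.44 and from 0.438 to 1.8, with a log2FC of 0.02 (SE 0.58), or -0.08 when library size alone was the scaling. Both genes are on the X chromosome, whose dosage differed between the groups, and the part of sex in their values was not tested. *Col4a3* and *Col4a4*, chains of kidney and lung basement membranes, ranged from 0.317 to 0.787 and from 0.175 to 0.669 in control mice, and from 0.358 to 1.04 and from 0.186 to 0.391 in treated mice. *Col4a3* was highest in treated mouse 2, and its log2FC of 0.05 was -0.05 with library size alone.

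The type VI genes, whose product links basement membrane to fibrils, summed to 21.3, 30 and 17 in control mice and to 7.69, 11 and 30.7 in treated mice. All 5 tested genes had a log2FC below 0, their median was -0.64 and none passed. *Col6a1* had values of 8.58, 9.69 and 5.71 in control mice and 4.74, 5.25 and 11 in treated mice. *Col6a2* had values of 6.11, 9.33 and 6.3 in control mice and 2.23, 3.98 and 10.4 in treated mice. *Col6a3*, the largest chain of the main type VI trimer, had values of 4.97, 6.98 and 3.53 in control mice and 0.441, 1.22 and 6.21 in treated mice. The lowest control mouse was mouse 3 for *Col6a1* and *Col6a3*, and treated mice 1 and 2 were lower still for all of these chains. The log2FC was -0.26, -0.64 and -1.62 for *Col6a1*, *Col6a2* and *Col6a3*, with limma adjusted p between 0.376 and 0.775.

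*Col6a4*, whose chain can stand in for that of *Col6a3*, had values of 1.18, 3.55 and 0.952 in control mice and 0.0678, 0.0239 and 2.95 in treated mice, so that treated mouse 2 was at the value of 3 counts. It had the lowest log2FC of the 37 genes, -2.09 (95% confidence interval -4.48 to 0.30, limma adjusted p = 0.447). Without treated mouse 3 the log2FC was -3.56 for *Col6a4* (limma adjusted p = 0.028) and -2.59 for *Col6a3* (limma adjusted p = 0.0295), and it was -0.64 and -1.23 for *Col6a1* and *Col6a2*, which did not pass. *Col6a5*, next to *Col6a4* on chromosome 9, ranged from 0.205 to 0.461 in control mice and from 0.133 to 0.486 in treated mice, with its lowest value in treated mouse 3. *Col6a6* ranged from 0 to 0.275 and from 0 to 0.0593.

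The fibril-associated genes were split in direction, 3 lower and 3 higher of 6 tested, with a median log2FC of -0.00 and no call. *Col14a1* (ENSMUSG00000022371), on the plus strand of chromosome 15 from 55171140 to 55384199, encodes type XIV collagen, which binds the surface of fibrils. It had values of 0.822, 1.45 and 1.38 in control mice and 1.46, 2.7 and 3.7 in treated mice. Every treated mouse lay above every control, although treated mouse 1 was nearly level with control mouse 2. The log2FC was 0.99 (SE 0.37, limma adjusted p = 0.291), and leaving out 1 mouse at a time gave 0.70 to 1.35, with limma adjusted p of at least 0.193. *Col12a1*, a close relative of *Col14a1* that also coats fibrils, showed the opposite order in treated mice 1 and 2. Its values were 1.96, 3.87 and 1.02 in control mice and 0.364, 0.55 and 3.9 in treated mice, with a log2FC of -0.97 (SE 0.76, limma adjusted p = 0.625).

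*Col16a1*, found near fibrils and basement membranes, had the third highest mean level per kb of exon of the collagen genes over the 6 mice. Its values were 17.8, 14.3 and 13.5 in control mice and 11.5, 13.4 and 16.6 in treated mice. These lie close together, and the log2FC was -0.14 (95% confidence interval -0.50 to 0.22). *Col20a1* had values of 5.37, 3.36 and 7.02 in control mice and 4.9, 4.57 and 5.77 in treated mice. Its treated mice lay within the range of the controls, and the log2FC was 0.01 (95% confidence interval -0.57 to 0.59), or -0.10 with library size alone. *Col9a3* ranged from 0.109 to 0.441 in control mice and from 0.175 to 0.414 in treated mice, and *Col9a2* from 0 to 0.127 and from 0.0398 to 0.125. *Col19a1*, which was not tested, was 0.137, 0.0633 and 0.0944 in control mice and 0, 0.0159 and 0 in treated mice, all of them at or under the value of 3 counts. *Col9a1* and *Col22a1* were not analysed here.

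The short-chain genes did not show the order of the fibrillar genes. *Col8a1* (ENSMUSG00000068196), on the minus strand of chromosome 16 from 57444621 to 57575100, encodes a chain of the lattice of type VIII collagen known from vessel walls and the cornea. Over the 6 mice it had the second highest mean level per kb of exon, 2.66 in control mice and 2.41 in treated mice on average. Its values were 20.4, 29.5 and 12.6 in control mice and 13.1, 20.5 and 22.9 in treated mice. All treated mice lay within the range of the controls, with a log2FC of -0.10 (95% confidence interval -0.76 to 0.56). Its partner chain *Col8a2* ranged from 0.136 to 0.213 in control mice and from 0.0915 to 0.212 in treated mice. *Col10a1*, a gene of growth-plate cartilage, had values of 1.22, 1.25 and 2.38 in control mice and 1.16, 1.43 and 0.857 in treated mice, and was lowest in treated mouse 3. The *Nt5dc1* gene on the opposite strand overlaps 20.8% of its exon bases.

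*Col15a1* and *Col18a1* encode collagens of the basement membrane zone, and *Col18a1* is the source of endostatin. *Col15a1* had values of 2.28, 2.3 and 2.14 in control mice and 1, 1.36 and 4.07 in treated mice, with the order of the fibrillar genes. Its controls lay close together, and the log2FC was -0.31 (SE 0.44, limma adjusted p = 0.812). *Col18a1* had values of 5.29, 5.25 and 3.48 in control mice and 2.51, 3.47 and 3.56 in treated mice. Only treated mouse 3 reached the lowest control, and the log2FC was -0.53 (SE 0.24, limma adjusted p = 0.376). *Slc19a1* on the opposite strand overlaps 12.7% of its exon bases.

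The membrane-spanning and anchoring collagens had no common order. *Col17a1* (ENSMUSG00000025064), on the minus strand of chromosome 19 from 47634783 to 47680533, encodes a membrane-spanning collagen of hemidesmosomes, by which epithelial cells hold to the basement membrane. It had values of 1.74, 1.71 and 1.6 in control mice and 1.47, 1.4 and 0.674 in treated mice. Every treated mouse lay below every control and treated mouse 3 was the lowest, the reverse of its place among fibrillar genes. The log2FC was -0.54 (SE 0.33, limma adjusted p = 0.52), and -0.21 without treated mouse 3. *Col7a1*, which forms the anchoring fibrils beneath epithelium, had values of 1.62, 0.85 and 1.62 in control mice and 1.29, 1.49 and 1.67 in treated mice, with a log2FC of 0.16 (95% confidence interval -0.55 to 0.87). The membrane-spanning *Col23a1* and *Col25a1* ranged from 0.633 to 0.807 and from 0.814 to 1.41 in control mice, and from 0.28 to 0.741 and from 0.475 to 0.852 in treated mice. *Col28a1*, known from peripheral nerve, ranged from 0.338 to 0.54 and from 0.17 to 0.391. *Col13a1* ranged from 0.0452 to 0.145 and from 0 to 0.15, and *Col26a1* was not analysed here.

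The composition of the collagen mRNA differed in the same mice. Fibrillar genes made up 36.6%, 35.8% and 41.5% of the summed value in control mice, 31.2% and 30.3% in treated mice 1 and 2, and 40.7% in treated mouse 3. Basement membrane genes made up 10.4%, 12% and 11.6% in control mice, 7.22% and 5.51% in treated mice 1 and 2, and 11.6% in treated mouse 3. The share of fibril-associated genes was 16.9%, 12.6% and 16.5% in control mice and 24%, 21.7% and 14.9% in treated mice, and that of short-chain genes 14%, 16.7% and 10.6% in control mice and 18.6%, 22.2% and 11.8% in treated mice. Treated mice 1 and 2 thus had lower shares of the former classes and higher shares of the latter than every control, and treated mouse 3 lay within the controls for all of them. These shares are of summed values, in which long genes weigh more, and they were not tested. Shares add up to a whole, so a higher share is not a higher level. Fibril-associated genes summed to 26.4, 23.2 and 23.6 in control mice and 18.7, 21.7 and 30.3 in treated mice. Short-chain genes summed to 21.9, 30.9 and 15.2 in control mice and 14.5, 22.1 and 23.9 in treated mice.

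Because chains of a type assemble together, ratios between pairs of chains per kb of exon were compared. The 9 pairs were chosen after the values were seen. All were of chains of the same type except *Col3a1* to *Col1a2*, which are of types III and I. *Col4a2* to *Col4a1* was 0.428, 0.574 and 0.519 in control mice and 0.664, 0.992 and 0.712 in treated mice. Here treated mouse 3 stood with the other treated mice above all controls. *Col5a2* to *Col5a1* was 0.998, 0.871 and 0.845 in control mice and 0.352, 0.66 and 0.778 in treated mice. *Col6a3* to *Col6a1* was 0.281, 0.35 and 0.299 in control mice and 0.0451, 0.113 and 0.274 in treated mice. *Col4a6* to *Col4a5* was 3.96, 1.14 and 1.42 in control mice and 1.09, 1.04 and 0.629 in treated mice. In these pairs all treated mice lay below all controls. Each of the 4 ratios had p = 0.1 by an exact two-sided permutation test, the smallest p that 3 mice against 3 can give, and 0.225 after Benjamini-Hochberg adjustment over the 9 pairs. The groups overlapped for the other 5 ratios. *Col1a2* to *Col1a1* ranged from 0.708 to 1.28 over the 6 mice, and *Col8a1* to *Col8a2* from 39.8 to 161. The size of a ratio, though not its order among mice, depends on the annotated exon lengths, such as 12.7 kb for *Col1a2* and 6.57 kb for *Col1a1*.

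**Figure D3:**
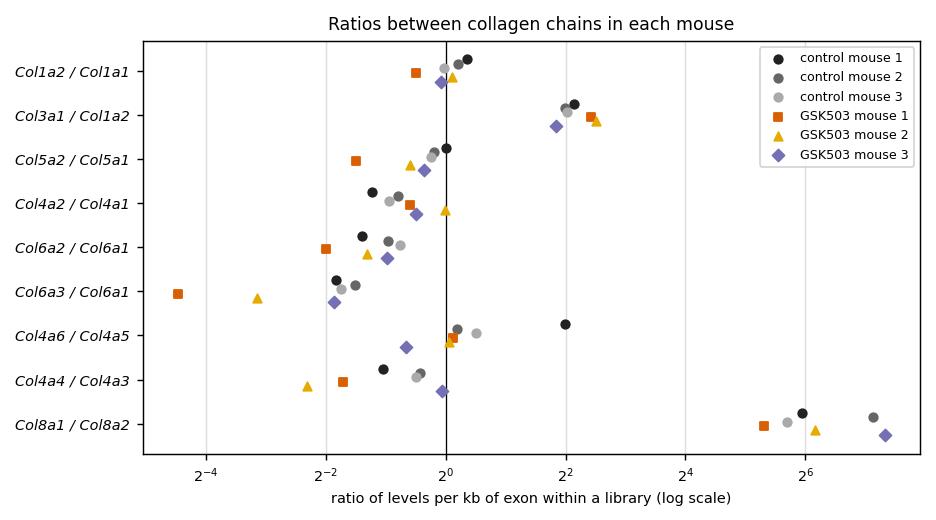
The horizontal axis gives the ratio of levels per kb of exon between the chains of each of 9 pairs, on a log scale, with 1 point per mouse. Control mice are circles and GSK503-treated mice 1, 2 and 3 a square, triangle and diamond; *Col4a2* to *Col4a1* is higher, and *Col5a2* to *Col5a1*, *Col6a3* to *Col6a1* and *Col4a6* to *Col4a5* are lower, in all 3 treated mice than in all 3 controls.

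Most fibroblast, smooth muscle, endothelial and macrophage markers moved with the collagen genes. Pericyte markers did so in part, and enteric glia markers did not. The 6 fibroblast markers other than collagens averaged 2.05, 2.63 and 2.19 in control mice on the log2(value + 0.1) scale, and 0.48, 0.47 and 3.57 in treated mice 1, 2 and 3. *Dpt*, a matrix protein of fibroblasts, was 3.89, 8.02 and 4.61 in control mice and 0.314, 0.191 and 17.1 in treated mice. *Lum* was 0 in treated mouse 1 and *Mfap5* was 0 in treated mouse 2. *Dcn*, a proteoglycan that binds fibrils, followed in part, with values of 9.07, 15 and 10.5 in control mice and 7.15, 9.99 and 34.8 in treated mice, so that treated mouse 2 lay above control mouse 1. *Gsn* did not follow, with values of 216, 170 and 156 in control mice and 243, 314 and 283 in treated mice, and it is also made by epithelium. Because of *Gsn*, the summed value of the list ran from 176 to 232 in control mice and from 251 to 344 in treated mice. Of the 6, 4 were lower in treated mice 1 and 2 than in all other mice (9.58% of all genes).

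Smooth muscle markers (*Acta2*, *Myh11*, *Tagln*, *Des*, *Cnn1* and *Actg2*) averaged 1.42, 3.83 and 2.80 in control mice and -0.81, -1.04 and 4.27 in treated mice. All 6 were lowest in treated mice 1 and 2 (9.58% of all genes) and highest in treated mouse 3 (17.1% of all genes). Their sum ran from 20.9 to 90.1 in control mice and from 4.26 to 122 in treated mice. Endothelial markers summed to between 4.19 and 6.42 and between 1.9 and 10.3, and averaged -1.76, -1.82 and 0.47 in treated mice 1, 2 and 3 against -0.54 to -0.13 in control mice. Macrophage markers summed to between 14.1 and 19.9 and between 4.17 and 29.4. All 5 were lowest in treated mice 1 and 2 (9.58% of all genes). Pericyte markers summed to between 16.3 and 22.7 and between 10.6 and 25.7, with only *Rgs5* highest in treated mouse 3. *Notch3* and *Cspg4* did not have the order of the fibrillar genes, and *Cspg4* was highest in treated mouse 1 (3.58). Enteric glia markers summed to between 0.606 and 1.13 and between 1.15 and 1.29, and *Sox10* was 0 in control mice 1 and 2. In the glia sum every treated mouse lay above every control. No gene of these lists passed the limma test over all 6 mice (0.642% of all genes). At an unadjusted p below 0.05, *Pdgfra* and *Flt1* were lower (6.27% of all genes) and *Gsn* was higher (7.06% of all genes). Without treated mouse 3, limma called 2 of the 6 fibroblast, 3 of the 6 smooth muscle, 2 of the 6 endothelial, 1 of the 4 pericyte and 1 of the 5 macrophage markers lower, against 0.615% of all genes. The part of the number of connective tissue cells carried into each crypt preparation in the collagen values was not tested.

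**Figure D4:**
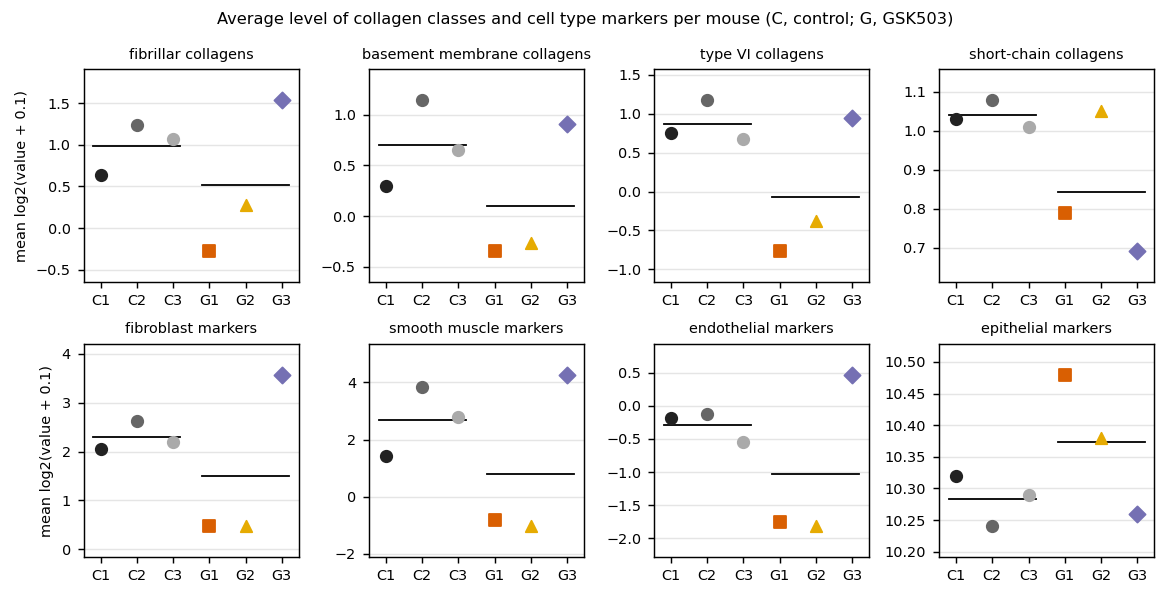
Each panel gives the mean of log2(value + 0.1) over a list of genes in each mouse (C1 to C3, control; G1 to G3, GSK503), with group means as lines and a vertical scale of its own per panel. Fibrillar, basement membrane and type VI collagens and fibroblast, smooth muscle and endothelial markers are lowest in G1 and G2. The mean of the epithelial markers spans 10.24 to 10.48 over all 6 mice and is highest in G1 and G2. It is at 10.48 and 10.38 in G1 and G2, 10.26 in G3 and 10.24 to 10.32 in the controls.

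Among genes whose products process, bind or degrade collagen, treated mice 1 and 2 lay below all other mice for 8 of 44 (18.2%), against 9.58% of all genes. Of 50 listed genes 46 were measured and 44 tested, and none had an adjusted p below 0.05 in limma, against 0.642% of all genes. At an unadjusted p below 0.05, 3 of the 44 were lower (6.27% of all genes) and 3 higher (7.06% of all genes), near the shares of all genes. Their median log2FC was -0.04. For 5 of them, *P4hb*, *Ppib*, *P3h1*, *P3h4* and *Pcolce*, all treated mice lay above all controls (9.84% of all genes), and for none below. *P4ha3*, *Colgalt2*, *Tll2* and *Mmp8* were not analysed here.

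Genes for modification and folding of the chains in the endoplasmic reticulum ranged widely in value. *P4hb*, the disulfide isomerase subunit of prolyl hydroxylase, was 925, 955 and 890 in control mice and 1090, 1199 and 999 in treated mice, with a log2FC of 0.24 (SE 0.10, limma adjusted p = 0.335). *Ppib*, a prolyl isomerase, was 315, 335 and 294 in control mice and 384, 400 and 353 in treated mice, with a log2FC of 0.27 (SE 0.08, limma adjusted p = 0.197). Neither was higher in treated mouse 3 than in the other treated mice. *Serpinh1*, the chaperone specific to collagen, did follow the fibrillar genes, with values of 3.23, 4.82 and 4.51 in control mice and 1.79, 2.81 and 10.3 in treated mice. *Lox*, which cross-links fibrils, ranged from 0.0685 to 0.226 in control mice and was 0.0509, 0.0637 and 0.383 in treated mice.

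Among receptors and proteases, *Itga11*, the integrin chain of fibroblasts that binds type I collagen, was 0.814, 0.832 and 0.283 in control mice and 0.11, 0.0239 and 0.316 in treated mice, with a log2FC of -1.64 (SE 0.57, limma adjusted p = 0.25). *Lair1*, a collagen receptor of leukocytes, was 1.74, 1.18 and 1.27 in control mice and 0.483, 0.143 and 1.21 in treated mice, with a log2FC of -1.37 (SE 0.55, limma adjusted p = 0.326). *Mmp2*, a gelatinase of stromal cells, was 2.11, 3.35 and 1.95 in control mice and 0.492, 0.43 and 2.43 in treated mice, with a log2FC of -1.43 (SE 0.55, limma adjusted p = 0.307). In all 3 genes treated mice 1 and 2 were lowest and treated mouse 3 lay among the controls. *Itgb1*, the shared integrin β chain, was 305, 335 and 328 in control mice and 318, 342 and 288 in treated mice, with overlapping groups. Without treated mouse 3, *Mmp2*, *Loxl2* and *Ddr2* were called lower by limma (adjusted p = 0.0245, 0.047 and 0.0423), 3 of the 41 genes then tested, against 0.615% of all genes.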

How the data were processed

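Libraries were prepared from total RNA of crypts (Illumina Stranded Total RNA Prep) and read as 76 bp pairs. The authors aligned reads to GRCm39 with STAR (v2.7.9a), estimated counts per gene with RSEM (v1.3.1) and applied TMM scaling, and the deposited signal is the estimated CPM of the TMM-scaled library. The worth of 1 count was recovered from the spacing of low values and gave the totals. Of all values above 0 in a library, 75.1% to 78% were whole multiples of it (within 0.01 counts). Scaling keeps each gene relative to the others, so absolute RNA is not measured.

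Genes that reached 0.1 in 3 or more mice were compared with limma (3.58.1, R 4.3.3; lmFit, eBayes with an intensity trend) on log2(value + 0.1), with Benjamini-Hochberg adjustment. With log2 changes of 1 and 2 simulated in 100 genes each among 16427 for this comparison, 82 and 97 were called, with 7 false calls among the unchanged genes. The changed genes were drawn from those with a mean above 1, and no simulated mouse stood apart from its group. The shares called therefore do not carry over to the collagen genes. The mice were grouped by their labels. A further allele, carried by all 6 mice, is not reported here. The labels do not say whether mice shared litters or cages. No 2 libraries held identical values. The members, classes, machinery and marker lists were chosen with earlier results of these data known. All collagen genes are named, those with a mean of at least 1 by mouse and the others by range. Of the machinery genes, the 5 of smallest p and *Serpinh1*, *Lox* and *Itgb1* are named. *P3h1*, *P3h4*, *Pcolce*, *Loxl2* and *Ddr2* were named after their values were seen. Alternatives were other scaling, pseudocounts, filters and variance models, limma-voom, a replicate block and leaving out each mouse. Gene positions and exon lengths are from the GENCODE annotation of GRCm39, and promoters, found for 34 members, from RefSeq.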

Additional observations from a re-analysis of the deposited data

How the results depend on the processing

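When 1 mouse at a time was left out, 0 to 8 collagen genes and 0 to 3 machinery genes were called lower. Both upper values came without GSK503-treated mouse 3, where 100 of all genes were called lower, against 7 to 15 when another mouse was left out. The cause was not tested. None was called higher. The count of 0 was kept under the 8 alternatives that used all mice. The median log2FC of the collagen genes lay between -0.60 and -0.23 under those alternatives, the latter with a pseudocount of 1. Of 344 such fits of 45 single genes, 336 kept their direction. With library size alone as the scaling, which moved the median of all genes from -0.01 to -0.12, the log2FC was -0.10 for *Col20a1*, -0.05 for *Col4a3* and -0.08 for *Col4a5*. With a pseudocount of 1, *Col20a1* was -0.00 and *Lox* 0.01. With a pseudocount of 0.01, *Col9a2* was 0.44. limma-voom gave 0.90 for *Col9a2* and -0.02 for *Col20a1*.

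Log2FC changed sign in 22 fits that left out a mouse. The ranges over these fits were -0.28 to 0.25 for *Col20a1*, -0.31 to 0.35 for *Col4a3*, -0.57 to 0.47 for *Col4a5*, -0.13 to 0.30 for *Col7a1*, -0.42 to 0.19 for *Col8a1*, -0.20 to 0.16 for *Col8a2*, -0.40 to 0.14 for *Col9a2* and -0.22 to 0.48 for *Col9a3*. They were -0.04 to 0.22 for *Col11a2*, -0.88 to 0.08 for *Col15a1*, -0.85 to 0.38 for *Serpinh1*, -0.36 to 0.20 for *Lox* and -0.09 to 0.03 for *Itgb1*.

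With the replicate block, 0 collagen and 0 machinery genes were called, the collagen median was -0.52, and 23 of all genes were higher and 10 lower, against 83 and 24 without it. Deviations of same-numbered mice correlated at 0.03, -0.13 and -0.12, and those of differently numbered mice at -0.17 to 0.22. These values show no pairing by number. Whether mice shared a litter or cage was not tested. Without the intensity trend, 9 of all genes were higher and 7 lower, and with library size alone 83 were higher and 178 lower. Members under a value of about 0.1 rest on few counts, and with 3 mice in each group a spread such as that of the GSK503-treated mice limits what can be called.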
